A study of Mus musculus with 12 samples.

Results

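The nuclear genes of the respiratory chain encode most subunits of the enzymes that pass electrons to oxygen in the mitochondrial inner membrane and of the ATP synthase that uses the resulting proton gradient. They were taken by name: all rows whose symbol begins with Nduf, Uqcr or Atp5, or is Cox4 to Cox8 with any letter ending, or is Sdha, Sdhb, Sdhc, Sdhd, Cycs or Cyc1, with names ending in -ps dropped. The rule found 100 of the 55487 rows of each library. It gave 39 rows for complex I subunits, 8 for complex I assembly factors, 4 for complex II, 9 for complex III with Cyc1, 1 for cytochrome c (Cycs), 21 for complex IV and 18 for ATP synthase. Ndufa4 and its paralog Ndufa4l2 carry complex I names but were counted in complex IV, to which the NDUFA4 protein is now assigned. Of the 100 rows, 4 are annotated as processed pseudogenes in spite of their names (Cox6c2, Ndufa11b, Ndufb4c and Ndufs6b).

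RNA was sequenced from the mouse line G1E-ER4, erythroid progenitors without GATA1 of their own into which an estradiol-activated form of this factor was brought. All cultures received 100 nM β-estradiol and 2 transfections of siRNA 24 h apart, and were harvested 24 h after the second. The 4 groups were siControl (control siRNA), siControl plus DTPA (control siRNA with 25 µM of the chelator DTPA, which takes up zinc in the medium), siZIP10 (siRNA against the zinc importer ZIP10, encoded by Slc39a10) and siZIP10 plus DTPA (both), with 3 biological replicates each per the labels. The model is 1 cell line, no group had zinc added back, and no siRNA sequence is stated, so effects of DTPA on other metals and off-target effects of the siRNA were not tested. All 55487 values under the label siControl plus DTPA replicate 3 repeat siZIP10 replicate 1, and that library was left out. The results rest on 11 libraries, with n = 2 for siControl plus DTPA and n = 3 for the other groups.

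Complex I (NADH dehydrogenase) and complex II (succinate dehydrogenase) feed electrons into ubiquinone, complex III passes them to cytochrome c, and complex IV (cytochrome c oxidase) passes them to oxygen. ATP synthase makes ATP from the proton gradient that complexes I, III and IV build. A few subunits of complexes I, III, IV and ATP synthase are encoded in the mitochondrial genome, and all others are nuclear genes whose products must be imported. Maturing erythroid cells make heme in their mitochondria and clear these organelles before they become red cells. Zinc is bound by the complex IV subunit Cox5b and the complex I subunit Ndufs6.

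Promoters of the members were read from RefSeq windows of the GRCm38.p6 build (250 bases before to 50 bases after each start), which were found for 74 of the 92 members tested below. The core of the palindromic site of the transcription factor NRF1, GCATGCG, was present on either strand in the windows of 14 of the 74 (18.9%), against 4.01% of all genes with a window and 8.36% of those genes that were tested. The holders were Atp5g2, Atp5j, Atp5k, Atp5l, Cox6a1, Cycs, Ndufa6, Ndufa8, Ndufa11, Ndufaf4, Ndufaf5, Sdhb, Uqcr11 and Uqcrc1. The ETS core CCGGAAG, bound by GABP and other ETS factors, was present on either strand in 19 windows (25.7%), against 9.93% of all genes and 24.6% of the tested genes. TATAAA was present in 6 windows (8.11%), against 15.7% of all genes and 7.77% of the tested genes. The motifs do not contain each other. The stretches upstream of both the RefSeq and the GENCODE start are shown for the 4 complex IV genes on which the results turn: Cox6a1, which had one of the largest interactions and holds the NRF1 core on both strands (overlapping matches, in capitals), Cox7a1, which rose, its alternative isoform Cox7a2, which fell, and Ndufa4, which fell furthest. They run 5′ to 3′ along the gene's strand.
Cox6a1 (chr5:115348982-115349208, - strand): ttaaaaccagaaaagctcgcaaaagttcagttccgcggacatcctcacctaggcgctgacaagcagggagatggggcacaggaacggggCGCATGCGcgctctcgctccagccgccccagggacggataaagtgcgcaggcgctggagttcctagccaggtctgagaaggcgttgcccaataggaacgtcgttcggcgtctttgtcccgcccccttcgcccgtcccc
Cox7a1 (chr7:30183921-30184143, + strand): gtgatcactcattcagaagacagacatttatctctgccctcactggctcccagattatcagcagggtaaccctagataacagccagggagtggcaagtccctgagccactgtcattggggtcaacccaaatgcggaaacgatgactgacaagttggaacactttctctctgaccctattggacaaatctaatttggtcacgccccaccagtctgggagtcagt
Cox7a2 (chr9:79759879-79760103, - strand): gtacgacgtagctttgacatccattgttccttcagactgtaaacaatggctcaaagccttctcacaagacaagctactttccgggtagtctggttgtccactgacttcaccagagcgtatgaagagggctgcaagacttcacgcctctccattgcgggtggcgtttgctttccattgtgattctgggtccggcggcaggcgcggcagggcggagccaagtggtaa
Ndufa4 (chr6:11907498-11907700, - strand): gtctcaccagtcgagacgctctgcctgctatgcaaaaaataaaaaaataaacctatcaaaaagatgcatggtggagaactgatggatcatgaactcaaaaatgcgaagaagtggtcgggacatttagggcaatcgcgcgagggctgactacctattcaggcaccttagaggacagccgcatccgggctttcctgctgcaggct
None of the 3 motifs was found in the upstream bases printed for Cox7a1, Cox7a2 and Ndufa4. Cox6a1 also holds an ETS core, closer to its start than the bases printed. A match or its absence describes these letters only.

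Values are deposited as TPM, transcripts of a gene among 1e+06, which correct for length and sum to the same total in each library, so they are shares of the RNA and not amounts. In a culture of many cells, fewer cells of a type and less RNA per cell cannot be told apart. Reads recovered from TPM and exon length came to 19.64 to 24.70 M (1 M is 1e+06) per library. Libraries correlated at 0.988 to 0.991 within groups and at 0.939 to 0.986 between groups. Slc39a10 stood at 2.31 to 2.78 TPM in siControl, 20.3 to 22.0 with DTPA, 0.507 to 0.837 with siZIP10 and 4.93 to 5.36 with both, so in the double treatment it was below the DTPA level but above control. Mt2, a metallothionein gene switched on by zinc, fell from 1963 to 2108 TPM in siControl to 15.0 to 19.2 with DTPA and 18.6 to 26.2 with both. Of 10 erythroid markers, 7 fell and 2 rose (Hbb-bs and Alas2) in the double treatment, against 39.9% and 26.7% of all tested genes. Their median log2 change was -0.69 and the lowest was -4.24. Their summed level was 38448 to 46304 TPM there, against 40754 to 47606 in siControl. It was 49708 to 55723 with DTPA and 46936 to 50600 with siZIP10. None of the 10 was at 0 in all libraries. With quantile normalization none of the 10 rose. The 13 markers of megakaryocytes, mast cells, myeloid and lymphoid cells summed to 17.0 to 18.6 TPM in the double treatment and 5.86 to 10.1 in the other libraries, with 5 at 0 in all libraries. The part of these differences in the results below was not tested.

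A gene was tested where its mean was at least 1 TPM, which 92 of the 100 rows reached. The 8 below it were Cox4i2, Cox6a2, Cox7b2, Cox8b, Cox8c, Ndufa4l2, Ndufa11b and a repeated Atp5o row, of which Cox7b2, Cox8b and the repeated Atp5o row were listed at 0 throughout. The change of each gene is the difference of group means of log2(TPM + 1), given ± its standard error (SE). A gene is said to have risen or fallen where the p of limma, adjusted over all 11379 genes tested by the Benjamini-Hochberg method, was under 0.05.

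With both treatments the nuclear respiratory chain transcripts fell almost throughout. Against siControl, 80 of the 92 tested members fell and 2 rose, while 39.9% of all tested genes fell and 26.7% rose. The median change was -0.58 over the members and -0.08 over all tested genes. With quantile normalization 74 members fell and 3 rose, while the higher share of all called genes went from 40.1% to 50.2%. All members together took 2.83 to 2.85% of a siControl library, 2.60 to 2.62% with DTPA alone, 2.53 to 2.60% with siZIP10 alone and 1.98 to 2.01% with both. The summed level was thus 92.1% of control with DTPA, 90.2% with siZIP10 and 70.3% with both, and the double-treated libraries did not overlap with any others.

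**Figure D1:**
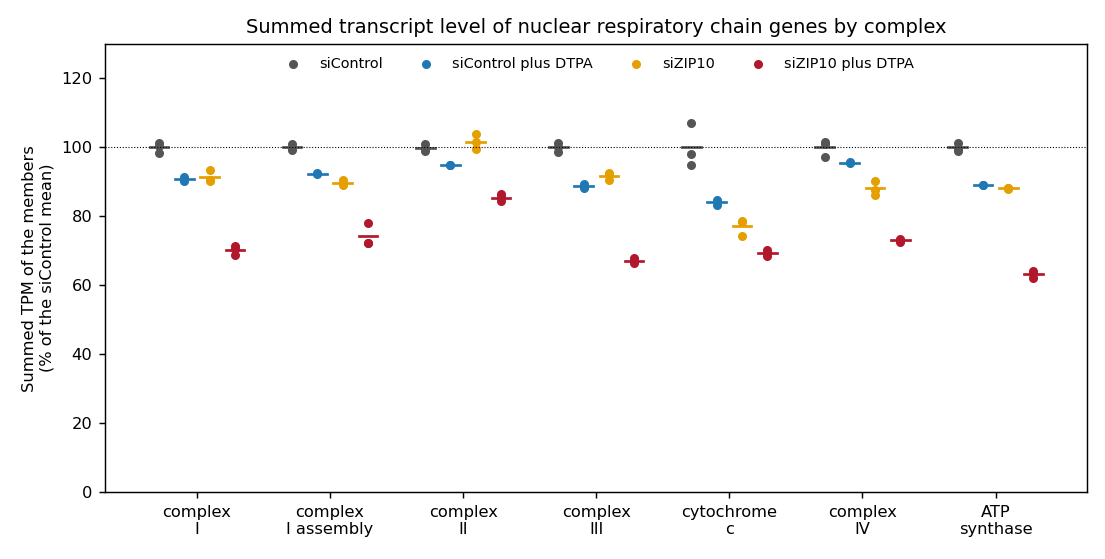
Summed TPM of the members of each complex in each library, as a percentage of the siControl mean (points: libraries; short lines: group means; n = 3, or 2 for siControl plus DTPA). The siZIP10 plus DTPA libraries lie lowest in every complex, at 63.2% of control on average for ATP synthase and 85.5% for complex II.

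DTPA alone and siZIP10 alone gave smaller changes. With DTPA, 42 of the 92 members fell and 3 rose (all genes: 18.8% and 9.98%), with a median of -0.15 (all genes: -0.04). The higher share of all called genes was 34.7% there and 51.1% with quantile normalization. With siZIP10, 55 fell and none rose (all genes: 17.5% and 13.1%), with a median of -0.17 (all genes: -0.01), and that share was 42.9% and 54.3%. At an unadjusted limma p under 0.05, 2 members were higher with siZIP10, and voom on the recovered reads also called 2 higher. Within siZIP10 cells, DTPA lowered 73 members and raised 3 (all genes: 37.3% and 23.1%), with a higher share of 38.2% among all called genes and 48.7% after median-of-ratios scaling. Within DTPA-treated cells, siZIP10 lowered 77 and raised 2 (all genes: 31.7% and 21.3%).

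For many members the change with both treatments was more negative than the sum of the single changes. The interaction, the change with DTPA in siZIP10 cells minus that in siControl cells, was below 0 in 54 of the 92 members and above 0 in 2 by the same test, against 20.4% and 12% of all genes. Its median was -0.26, against -0.02 over all genes. The positive share of all called interactions was 37.1%, and 50.4% after rescaling without mitochondrial genome and ribosomal protein genes. Libraries did not overlap and were lower in the double treatment than in siControl for 78 of the 92 members, against 41.8% of all tested genes. The double-treated libraries were the lowest of all 11 for 74 members (80.4%), against 31.1% of all tested genes. They were the highest for 2 members, Cox7a1 and Cox7a2l.

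**Figure D2:**
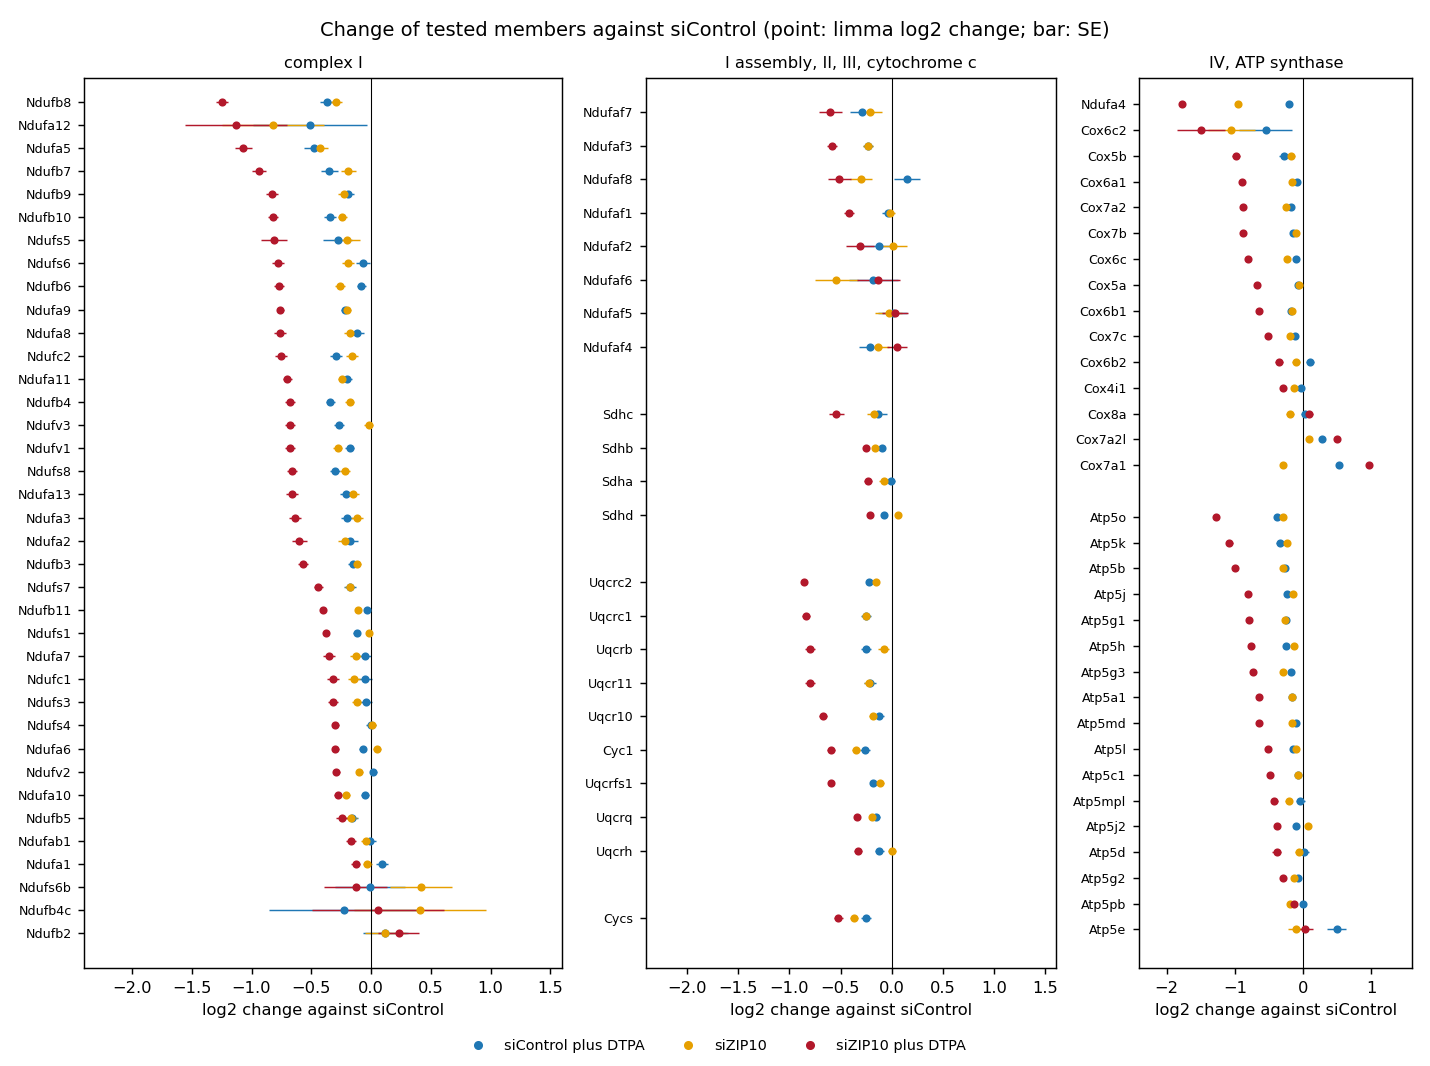
Log2 change of tested members against siControl with DTPA (blue), siZIP10 (orange) and both (red), in 3 panels by complex; points are limma estimates and bars their SE. The red points lie left of 0 for all but a few members, and Cox7a1 and Cox7a2l stand apart on the right.

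Complex I takes electrons from NADH. With both treatments 34 of its 38 tested members fell and none rose, with a median of -0.62, and the summed level was 70.2% of control. DTPA alone lowered 18 and siZIP10 alone 22. The interaction was below 0 in 21 and above 0 in none. Of all tested genes, 39.9% fell with both treatments, 18.8% with DTPA and 17.5% with siZIP10. The interaction was called below 0 in 20.4% of them. In complexes I, II and III, cytochrome c and ATP synthase no member rose with both treatments by limma, and none was higher at an unadjusted p under 0.05 or with voom on the recovered reads, while quantile normalization called 1 complex I member higher.

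Ndufb8, an accessory subunit of the membrane arm (chr19:44548572-44555440, minus strand), fell most in complex I. Its level was 87.2, 85.0 and 90.5 TPM in siControl, 68.1 and 67.1 with DTPA, 67.6, 77.9 and 68.7 with siZIP10, and 35.0, 35.4 and 38.2 with both. The single-treated libraries overlapped each other and lay below siControl, and the double-treated ones lay below all others. The limma changes were -0.37 ± 0.06 (SE) with DTPA (adjusted p = 0.0012), -0.29 ± 0.05 with siZIP10 (0.00247) and -1.25 ± 0.05 with both (6.99e-09). The interaction of -0.59 ± 0.08 had an adjusted p of 0.000301.

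Ndufa5, an accessory subunit of the matrix arm (chr6:24518666-24528013, minus strand), had the largest called fall of complex I in each single treatment. It stood at 117, 105 and 109 TPM in siControl, 76.4 and 81.8 with DTPA, 79.1, 81.5 and 85.5 with siZIP10, and 53.5, 46.5 and 57.5 with both. The single-treated groups overlapped, and the groups were otherwise separate. Its changes were -0.48 ± 0.08, -0.43 ± 0.07 and -1.07 ± 0.07 in that order (limma adjusted p = 0.00116, 0.00121 and 2.05e-07), and the interaction, -0.16 ± 0.11, was not called (adjusted p = 0.29).

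The zinc-binding subunit Ndufs6 (chr13:73319838-73328542, minus strand) stood at 85.3, 88.7 and 82.8 TPM in siControl, 85.3 and 78.2 with DTPA, 72.1, 76.8 and 75.7 with siZIP10, and 45.9, 51.5 and 51.4 with both. The DTPA libraries overlapped with siControl, and the double-treated ones lay far below all others. The change was -0.07 ± 0.06 with DTPA (limma adjusted p = 0.441), -0.19 ± 0.05 with siZIP10 (0.0191) and -0.78 ± 0.05 with both (2.31e-07). The interaction was -0.52 ± 0.08 (0.000547). The call with siZIP10 alone was lost without siControl replicate 2 (change -0.17) or siZIP10 replicate 1 (-0.16), and with quantile normalization (-0.16).

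Of the catalytic core subunits of complex I, Ndufv1 (NADH-binding), Ndufs8 and Ndufs7 (iron-sulfur proteins) changed by -0.68, -0.66 and -0.44 with both treatments, and Ndufs1, Ndufs3 and Ndufv2 by -0.38, -0.32 and -0.29, all called by limma. Members not called with both included Ndufb2, listed at 1.06 to 2.13 TPM in all libraries, and the pseudogenes Ndufb4c and Ndufs6b.

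After Ndufb8, Ndufa12 (-1.13) and Ndufa5, the largest falls of complex I with both treatments were those of the membrane-arm subunits Ndufb7 (-0.94), Ndufb9 (-0.83) and Ndufb10 (-0.82), each called by limma. Ndufa6, the complex I member with the highest TPM in siControl, was singled out after its values were seen. It went from 849 to 898 TPM in siControl to 705 to 716 (-0.30), while the single-treated libraries, at 817 to 916, were not called. The smallest called falls were those of Ndufa1 (-0.13) and Ndufab1 (-0.17), the acyl carrier protein that also serves mitochondrial fatty acid synthesis.

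Ndufaf1 to Ndufaf8 are assembly factors, which help build complex I and do not stay in it. With both treatments 4 of the 8 fell and none rose, while 39.9% of all tested genes fell and 26.7% rose. Ndufaf7, a methyltransferase of the mitochondrial matrix, changed most, from 8.78 to 9.72 TPM in siControl to 4.59 to 6.93 with both, by -0.60 ± 0.11 (limma adjusted p = 0.000544). Ndufaf3 changed by -0.58 ± 0.05, Ndufaf8 by -0.51 ± 0.11 and Ndufaf1 by -0.42 ± 0.05. Ndufaf2, Ndufaf4, Ndufaf5 and Ndufaf6, at 2.41 to 13.9 TPM, changed by -0.31, 0.05, 0.03 and -0.13 and were not called. More than 20% of the exon bases of Ndufaf2, Ndufa13 and Ndufb6 overlap a gene on the opposite strand, and whether the counting used strand is unknown. Among the smaller overlaps were 19.75% for Uqcrc2 on the opposite strand and 19.5% for Ndufb9 on the same strand.

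Some members share sequence with rows named as pseudogenes, and the way reads were divided between them is uncertain. Ndufa12 ranged from 22.7 to 53.0 TPM among the siControl libraries while Ndufa12-ps ranged from 96.5 to 222, with the lowest Ndufa12 library highest for Ndufa12-ps. Ndufa12 changed by -1.13 ± 0.43 with both treatments (limma adjusted p = 0.0385). The sum of both rows was 67.0% of control with both treatments. The corresponding sums were 53.0% for Ndufs5 with Ndufs5-ps and 50.9% for Cox5b with Cox5b-ps.

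Complex II, which also works in the tricarboxylic acid cycle, fell least. All 4 subunits fell with both treatments, against 39.9% of all tested genes, with a median of -0.24. The summed level was 85.5% of control. Most of this sum, 1353 TPM in siControl, was that of Sdhd, whose values follow below. The flavoprotein gene Sdha stood at 149, 140 and 147 TPM in siControl and 129, 118 and 124 with both (-0.23 ± 0.04, limma adjusted p = 0.000367). The iron-sulfur subunit gene Sdhb went from 85.1, 86.3 and 88.5 to 72.0, 73.2 and 72.2 (-0.25 ± 0.03, 2.01e-05). The groups did not overlap in either gene, and with quantile normalization Sdha was no longer called (change -0.01).

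Of the membrane anchors, Sdhc (chr1:171127165-171150603, minus strand) was at 46.2, 52.1 and 46.0 TPM in siControl and 32.6, 34.7 and 31.2 with both (-0.54 ± 0.07, limma adjusted p = 4.13e-05). Sdhd stood at 1088, 1063 and 1068 in siControl, 1015 and 1018 with DTPA, 1145, 1096 and 1114 with siZIP10, and 924, 917 and 941 with both. Sdhd thus lay above siControl with siZIP10, a change of 0.06 ± 0.02 that was not called (adjusted p = 0.0653), and lowest with both (-0.21 ± 0.02, 8.7e-06). Its interaction was -0.19 ± 0.03 (0.00127), and with quantile normalization it was -0.03 and not called (adjusted p = 0.408). Its call with DTPA alone (-0.08 ± 0.02, 0.0389) was lost in 14 of the 21 alternative settings, among them leaving out any of the 3 siControl libraries, either DTPA library, siZIP10 replicate 3 or siZIP10 plus DTPA replicate 1, with changes of -0.07 to -0.08.

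Complex III fell in every member with both treatments: 9 of 9 fell, with a median of -0.67 and a summed level of 67.2% of control. DTPA lowered 7 of the 9 and siZIP10 7 of the 9. Of all tested genes these treatments lowered 18.8% and 17.5%, and both together 39.9%. Uqcrc2, a core protein of the matrix side (chr7:120635176-120659524, plus strand), stood at 258, 259 and 253 TPM in siControl, 215 and 225 with DTPA, 237, 222 and 233 with siZIP10, and 143, 138 and 143 with both. The 2 single-treated groups overlapped each other below siControl, and the double-treated libraries stood well apart. Its changes were -0.22 ± 0.03, -0.15 ± 0.03 and -0.86 ± 0.03 (limma adjusted p = 0.000692, 0.00349 and 1.26e-09), with an interaction of -0.49 ± 0.04 (1.8e-05). The other core protein gene, Uqcrc1, changed by -0.84 and Uqcrb by -0.80 with both. The small subunits Uqcr11 and Uqcr10 changed by -0.80 and -0.67. Uqcrh, the hinge protein and the member of the complex with the highest TPM, went from 1030 to 1136 TPM in siControl to 850 to 871 (-0.33), and Uqcrq changed by -0.34 with an interaction of 0.0 (limma adjusted p = 0.989).

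The cytochromes Cyc1 and Cycs fell in each treatment, and their interactions were not called. Cyc1 (cytochrome c1, chr15:76343523-76346260, plus strand) stood at 149, 165 and 159 TPM in siControl, 134 and 129 with DTPA, 124, 123 and 123 with siZIP10, and 107, 108 and 98.1 with both. Cycs (cytochrome c, chr6:50562563-50566538, minus strand) stood at 67.3, 59.6 and 61.8, 53.2 and 52.4, 46.8, 49.2 and 49.4, and 43.1, 43.6 and 44.2 in the same order. In both genes the 4 groups followed each other down without overlap. Cyc1 changed by -0.26 ± 0.05, -0.35 ± 0.04 and -0.59 ± 0.04 (limma adjusted p = 0.00269, 0.000215 and 5.63e-07), with an interaction of 0.02 ± 0.07 (0.838). Cycs changed by -0.25 ± 0.05, -0.37 ± 0.04 and -0.52 ± 0.04 (0.00328, 0.000132 and 1.33e-06), with an interaction of 0.10 ± 0.06 (0.292). For the Rieske iron-sulfur protein gene Uqcrfs1 the changes were -0.18 ± 0.03, -0.11 ± 0.03 and -0.59 ± 0.03, with an interaction of -0.29 ± 0.04 (limma adjusted p = 0.000591). Its call with siZIP10 alone was lost without siControl replicate 2, siControl replicate 3 or siZIP10 replicate 3 (-0.10 each).

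Complex IV held both the largest fall and the only rises with both treatments. Of its 15 tested members 12 fell and 2 rose, with a median of -0.68, and the summed level was 73.1% of control. The 12 include the pseudogene Cox6c2 (-1.49). The interaction was below 0 in 11 and above 0 in 2. Among all tested genes 39.9% fell and 26.7% rose with both. Their interaction was called below 0 in 20.4% and above 0 in 12%.

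Ndufa4 (chr6:11900292-11907497, minus strand) fell furthest of all members. It stood at 377, 353 and 367 TPM in siControl, 310 and 320 with DTPA, 182, 194 and 188 with siZIP10, and 104, 105 and 109 with both. The 4 groups did not overlap, and siZIP10 alone moved it further than DTPA alone. The changes were -0.21 ± 0.04 with DTPA (limma adjusted p = 0.0018), -0.96 ± 0.03 with siZIP10 (1.37e-07) and -1.77 ± 0.03 with both (2.03e-11), with an interaction of -0.60 ± 0.05 (9.4e-06). In the siZIP10 comparison it ranked 165 from the lowest of 11379 genes, and in the double treatment 200. Over all alternative settings its change with siZIP10 was -0.98 to -0.93. The next largest fall with siZIP10 among members expressed above 100 TPM in siControl was that of Ndufa5. Its paralog Ndufa4l2, a gene known from hypoxia, was listed at 0 to 0.259 TPM.

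Cox7a1 and Cox7a2 moved in opposite directions with DTPA and with both treatments, while both fell with siZIP10 alone. Cox7a1, the isoform of heart and skeletal muscle (chr7:30184144-30186078, plus strand), stood at 315, 332 and 309 TPM in siControl, 446 and 465 with DTPA, 262, 265 and 254 with siZIP10, and 640, 607 and 623 with both. It was thus lowest with siZIP10 alone and highest with both, and no 2 groups overlapped. The changes were 0.52 ± 0.04, -0.29 ± 0.03 and 0.97 ± 0.03 (limma adjusted p = 6.16e-06, 0.000108 and 1.09e-09). DTPA raised it by 1.26 ± 0.03 in siZIP10 cells (3.38e-10), and the interaction was 0.74 ± 0.05 (2.16e-06).

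Cox7a2, the isoform of most tissues (chr9:79755361-79759878, minus strand), stood at 391, 367 and 369 TPM in siControl, 328 and 335 with DTPA, 306, 327 and 314 with siZIP10, and 200, 207 and 205 with both. Its order was the reverse of that of Cox7a1 in the DTPA-treated cells. The changes were -0.18 ± 0.04, -0.25 ± 0.03 and -0.88 ± 0.03 (limma adjusted p = 0.00406, 0.000284 and 2.08e-09), with an interaction of -0.45 ± 0.05 (5.89e-05). With quantile normalization the change of Cox7a2 with DTPA alone was -0.13 and not called. Cox7a1 made up 45.9% ± 1.49 (SD) of the summed TPM of both genes in siControl, 57.9% ± 0.34 with DTPA, 45.2% ± 0.79 with siZIP10 and 75.4% ± 0.81 with both. DTPA therefore went with a higher Cox7a1 share in both backgrounds, while the siControl and siZIP10 libraries overlapped. These shares were computed after the genes' changes were known and were not tested.

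Cox7a2l, whose product links complexes III and IV in supercomplexes (chr17:83501918-83517330, minus strand), was the other member that rose. It stood at 286, 268 and 283 TPM in siControl, 330 and 347 with DTPA, 305, 286 and 298 with siZIP10, and 387, 388 and 414 with both. The siZIP10 libraries lay just above the siControl range, and both DTPA groups lay well above it. The changes were 0.28 ± 0.04 (limma adjusted p = 0.000752), 0.09 ± 0.04 (0.115) and 0.50 ± 0.04 (5.79e-07), and the interaction, 0.14 ± 0.06, was not called (0.0878).

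**Figure D3:**
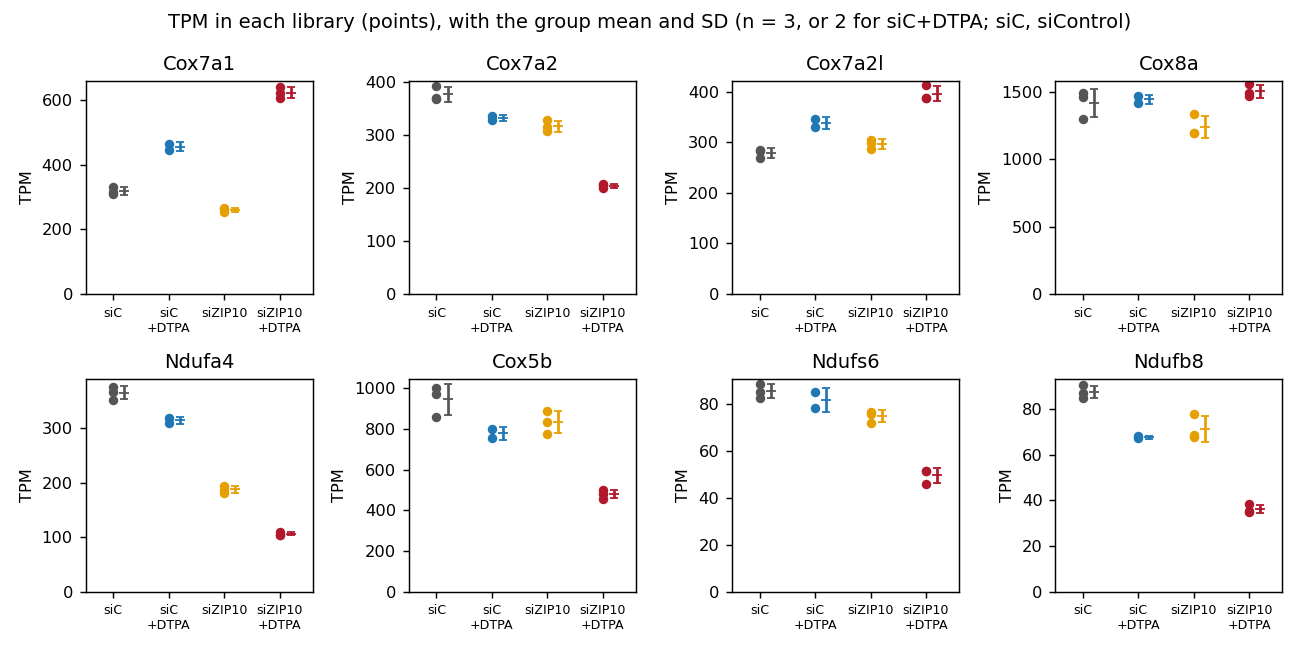
TPM of 8 members in each library (points), with the group mean and SD beside them (siC is siControl; n = 3, or 2 for siControl plus DTPA); every axis starts at 0. Cox7a1 and Cox7a2l are highest with both treatments, Cox8a overlaps between siControl and both treatments, and Ndufa4, Cox7a2, Cox5b, Ndufs6 and Ndufb8 are lowest with both.

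Cox8a, the Cox8 isoform of most tissues (chr19:7215153-7217616, minus strand), was the complex IV member that the test did not call in the double treatment. Its level was 1300, 1488 and 1463 TPM in siControl, 1468 and 1420 with DTPA, 1194, 1336 and 1194 with siZIP10, and 1468, 1560 and 1488 with both. The siControl and double-treated libraries overlapped, with a change of 0.09 ± 0.06 (limma adjusted p = 0.191). It was called higher after median-of-ratios scaling (0.18), after rescaling without mitochondrial genome and ribosomal protein genes (0.17) and with voom (0.16). With siZIP10 alone it fell by 0.19 ± 0.06 (limma adjusted p = 0.0281), a call lost in 8 of 21 alternative settings, among them leaving out siControl replicate 2 or 3 or siZIP10 replicate 1 or 3 (-0.17 to -0.15). DTPA raised it by 0.28 ± 0.06 in siZIP10 cells (0.00148), which was called in all 21. Its interaction of 0.25 ± 0.09 (0.0461) was lost in 12 of 20 alternative settings, among them leaving out any library other than siControl replicate 1 or siZIP10 replicate 2, with changes of 0.21 to 0.27. Cox8b was listed at 0 throughout and Cox8c at 0 to 0.315 TPM.

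Cox5b, the zinc-binding subunit (chr1:36691449-36693681, plus strand), stood at 862, 974 and 1001 TPM in siControl, 755 and 802 with DTPA, 837, 887 and 777 with siZIP10, and 481, 500 and 458 with both. The siZIP10 libraries overlapped with siControl and with DTPA, and the double-treated libraries were far below the rest. The changes were -0.28 ± 0.07 (limma adjusted p = 0.0135), -0.18 ± 0.06 (0.0529) and -0.98 ± 0.06 (1.67e-07), with an interaction of -0.52 ± 0.09 (0.00187). The call with DTPA alone was lost after median-of-ratios scaling (-0.24) and without siControl plus DTPA replicate 1 (-0.23).

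Cox6a1 (chr5:115345642-115348981, minus strand), the Cox6a isoform outside heart and muscle, was the most abundant member in siControl. It stood at 1846, 2058 and 2062 TPM in siControl, 1895 and 1848 with DTPA, 1751, 1840 and 1719 with siZIP10, and 1053, 1078 and 1069 with both. Only the double-treated libraries were far from the others. The changes were -0.09 ± 0.05 (limma adjusted p = 0.209), -0.17 ± 0.04 (0.0131) and -0.90 ± 0.04 (1.29e-08), and the interaction of -0.64 ± 0.06 (2.8e-05) was among the 3 largest negative ones. The call with siZIP10 alone was lost without siControl replicate 2 (-0.14), siControl replicate 3 (-0.14) or siZIP10 replicate 3 (-0.15). Its muscle counterpart Cox6a2 was listed at 0 to 0.433 TPM.

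Cox7b (chrX:106015700-106022450, plus strand) had an interaction of the same size, -0.64 ± 0.06 (limma adjusted p = 1.48e-05). It stood at 455, 435 and 453 TPM in siControl, 393 and 415 with DTPA, 395, 421 and 438 with siZIP10, and 245, 238 and 244 with both. The DTPA libraries lay below siControl, the siZIP10 libraries overlapped with each of these groups, and the double-treated ones lay below all others. The fall with DTPA alone (-0.15 ± 0.04, limma adjusted p = 0.0242) was lost in 9 of 21 alternative settings, among them leaving out siControl replicate 1 or 3 (-0.14 each) or siControl plus DTPA replicate 1 (-0.11). With siZIP10 alone the change of -0.10 was not called (0.0744). The change with both was -0.88 ± 0.04 (6.38e-09).

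Cox5a (chr9:57521274-57532426, plus strand), which sits on the matrix side of the complex, was singled out after its values were seen, for a fall in the double treatment without a called change in either single one. It stood at 247, 263 and 262 TPM in siControl, 243 and 243 with DTPA, 255, 248 and 240 with siZIP10, and 161, 160 and 160 with both. The 8 libraries without the double treatment lay within 240 to 263 TPM. The changes were -0.08 ± 0.03 (limma adjusted p = 0.0903), -0.06 ± 0.03 (0.179) and -0.68 ± 0.03 (6.66e-09), with an interaction of -0.54 ± 0.04 (7.92e-06). Cox6c changed by -0.81 and Cox7c by -0.52 with both.

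Of the remaining isoforms of complex IV, Cox6b1, Cox6b2 and Cox4i1 fell with both treatments. Cox6b1, the isoform of most tissues, stood at 1675 to 1702 TPM in siControl and 1059 to 1097 with both (-0.64 ± 0.03, limma adjusted p = 2.52e-08). Cox6b2, known as the testis isoform, was also present, at 417 to 491 TPM in siControl and 350 to 374 with both (-0.35 ± 0.06, 0.000224). It made up 21.4% ± 1.30 (SD) of the summed TPM of both genes in siControl and 24.9% ± 1.02 with both treatments, and the ranges over the libraries did not overlap. With DTPA alone its share was 25.5% and 24.2%, within the range of the double treatment, and with siZIP10 alone it was 22.0% ± 0.71. Cox4i1 went from 871 to 875 TPM to 699 to 732 (-0.29 ± 0.02, 1.47e-06), while Cox4i2, the isoform of lung, was listed at 0 to 0.819 TPM. The pseudogene Cox6c2, at 1.87 to 11.8 TPM, had the largest called fall of complex IV with siZIP10 (-1.05 ± 0.35, 0.0436), and this call was lost in 13 of 21 alternative settings, among them leaving out any siControl or siControl plus DTPA library, siZIP10 replicate 1 or 2, or siZIP10 plus DTPA replicate 2 (-1.11 to -0.84).

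ATP synthase fell most as a sum. With both treatments 16 of its 17 tested members fell and none rose, with a median of -0.64, and the summed level was 63.2% of control. DTPA alone lowered 9 and raised 1, and siZIP10 alone lowered 13. The interaction was below 0 in 13 and above 0 in none. Among all tested genes 39.9% fell with both treatments, 18.8% with DTPA and 17.5% with siZIP10. Their interaction was called below 0 in 20.4%.

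Atp5o, the subunit that ties the catalytic head to the stalk, fell most in ATP synthase. It stood at 136, 130 and 128 TPM in siControl, 99.7 and 100 with DTPA, 105, 111 and 105 with siZIP10, and 53.5, 55.5 and 52.1 with both. The 4 groups did not overlap. Its changes were -0.39 ± 0.04, -0.29 ± 0.03 and -1.27 ± 0.03 (limma adjusted p = 5.19e-05, 0.000151 and 2.2e-10), with an interaction of -0.59 ± 0.05 (1.33e-05). The name occurs in 2 rows of the files, so that its identifier and position could not be assigned, and the other row was listed at 0.

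The catalytic β subunit gene Atp5b (chr10:128083273-128090391, plus strand) stood at 912, 919 and 938 TPM in siControl, 768 and 758 with DTPA, 786, 746 and 735 with siZIP10, and 460, 456 and 466 with both. Its level with both treatments was 49.9% of control, a change of -1.0 ± 0.03 (limma adjusted p = 1.71e-10). The α subunit gene Atp5a1 changed by -0.65 and the γ subunit gene Atp5c1 by -0.48. Atp5k, a small membrane subunit (chr5:108433244-108434448, minus strand), was at 448 to 487 TPM in siControl and 206 to 230 with both (-1.08 ± 0.05, 1.12e-08).

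The peripheral stalk subunits Atp5j and Atp5h changed by -0.80 and -0.76 with both treatments, and the small membrane subunits Atp5md, Atp5l, Atp5mpl and Atp5j2 by -0.64, -0.52, -0.42 and -0.39. Atp5pb, another stalk subunit gene, was singled out after its values were seen. It stood at 350 to 356 TPM in siControl, 349 and 357 with DTPA, 309 in all 3 siZIP10 libraries, and 309 to 324 with both. Its fall was called with siZIP10 alone (-0.19 ± 0.02, limma adjusted p = 0.000174) and with both (-0.14 ± 0.02, 0.000224), and the interaction was 0.04 ± 0.03 (0.435).

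The 3 genes Atp5g1, Atp5g2 and Atp5g3 encode the same mature c subunit of the rotor ring. With both treatments Atp5g1 changed by -0.79 ± 0.03, Atp5g3 by -0.73 ± 0.03 and Atp5g2 by -0.30 ± 0.03 (limma adjusted p = 5.22e-09, 1.66e-09 and 1.47e-05). The share of Atp5g2 in their summed TPM was 23.4% ± 0.47 (SD) in siControl and 29.4% ± 0.66 with both, and that of Atp5g3 was 59.2% ± 0.88 and 55.1% ± 0.05. These shares did not overlap between the groups and were not tested.

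Atp5e, the ε subunit gene, was the ATP synthase member not called with both treatments and the one that rose with DTPA alone. It stood at 104, 102 and 83.5 TPM in siControl, 140 and 131 with DTPA, 95.3, 84.1 and 89.9 with siZIP10, and 84.5, 90.0 and 121 with both. The double-treated libraries spread across the siControl range (0.02 ± 0.12, limma adjusted p = 0.898). The rise with DTPA alone was 0.49 ± 0.14 (limma adjusted p = 0.0221), and its call was lost with no filter (0.49). It was also lost without siControl replicate 3 (0.39), siControl plus DTPA replicate 1 (0.45) or siControl plus DTPA replicate 2 (0.54).

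**Figure D4:**
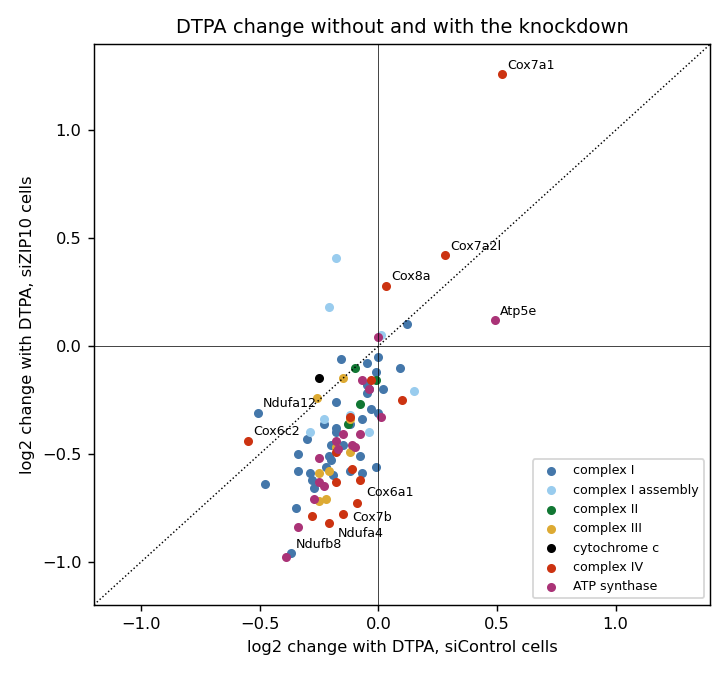
Log2 change with DTPA in siControl cells (x axis) against the change with DTPA in siZIP10 cells (y axis) for the 92 tested members, coloured by complex; the 2 axes share no libraries and the dotted line marks equal changes. Most points lie below the line, Cox7a1 lies above it at 0.52 and 1.26, and Atp5e lies at 0.49 and 0.12.

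Neither the level nor the length of a member ordered its change with both treatments. Over the 91 tested members with an exon length, Spearman's rho with the change was -0.19 for the siControl level and 0.12 for the exon length, as a description across genes that share libraries.

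Subunits encoded in the mitochondrial genome did not follow the nuclear ones down in the double treatment. Of 13, 3 rose with both treatments (mt-Co1, mt-Nd4 and mt-Nd5) and none fell, with a median of 0.17. Of all tested genes 26.7% rose and 39.9% fell. mt-Co1, the catalytic subunit of complex IV, stood at 19306 ± 806 TPM (SD, n = 3) in siControl and 25076 ± 520 with both (0.38, limma adjusted p = 1.95e-06). This direction depended on the scaling, since with quantile normalization none of the 13 rose and 2 fell (median 0.08). With siZIP10 alone 2 of the 13 fell and none rose (all genes: 17.5% and 13.1%). Their median there was -0.20, against -0.17 for the nuclear members. The 13 took 5.75 to 6.45% of TPM with siZIP10 and 6.57 to 7.21% in siControl. With DTPA alone none of the 13 was called (median 0.04). Ribosomal RNA of the mitochondrial genome took 1.43 to 1.45% of TPM in the double-treated libraries and 0.26 to 0.42% in the others, and ribosomal protein genes 10.71 to 11.05% and 8.02 to 9.47%. The part of these shares in the fall of the members was not tested beyond the rescaling that leaves both kinds of gene out, in which 76 members fell and 3 rose with both treatments.

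Assembly factors, which help to build the complexes, were counted from separate lists, to be read against the 39.9% of all tested genes that fell and the 26.7% that rose. With both treatments, 11 of 22 tested complex IV assembly genes fell and 3 rose (Cox14, Cox17 and Surf1; median -0.23). Of 9 complex I assembly genes with other names 6 fell and 2 rose (median -0.31). Of 5 for complex III 3 fell and 1 rose (median -0.43), of 4 for complex II none fell and 2 rose (median 0.04), and of 4 assembly or inhibitor genes of ATP synthase 3 fell (median -0.38). Atpif1, the inhibitor of ATP synthase, went from 1568 ± 146 to 921 ± 54.8 TPM (SD, n = 3; -0.76, limma adjusted p = 1.7e-06). Of 12 tricarboxylic acid cycle genes 9 fell and 1 rose (median -0.40), among them Fh1 (fumarase) from 53.4 ± 0.443 to 33.7 ± 0.712 TPM. Of 77 mitochondrial ribosomal protein genes, a list added later than the others, 62 fell and 1 rose (median -0.40).

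Among 11 tested regulators of mitochondrial genes, 5 fell and 3 rose with both treatments (median -0.04, which was 0.03 to 0.05 in the 4 other scalings), near the shares of all tested genes (39.9% and 26.7%). Nrf1, the factor that binds the motif shown above, stood at 14.2 ± 0.206 TPM in siControl and 7.15 ± 0.485 with both (SD, n = 3). Its changes were -0.35 with DTPA, -0.38 with siZIP10 and -0.90 with both (limma adjusted p = 0.00134, 0.000428 and 7.99e-08). The NRF1 core was held by 12 of the 66 members with a window that fell with both treatments, and by 14 of all 74. Whether the level of Nrf1 bears on that of the members was not tested. Gabpb1, a subunit of GABP, changed by -0.57 (2.09e-06), and its partner Gabpa, at 27.3 ± 1.41 and 26.6 ± 0.840 TPM, was not called (-0.04, 0.59). Ppargc1a, a coactivator of mitochondrial genes, was listed at 0.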

How the data were processed

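Poly(A) RNA of 12 cultures in 4 groups was sequenced with a stranded kit, per the labels' protocols. The deposited values are TPM. The mm10 build and the tools HISAT2 2.1.0, featureCounts, edgeR, Trimmomatic 0.33 and FastQC come from the submitters' processing notes. Which annotation and which strand option served is not given in the sources used here. The files name genes by symbol, and positions, exon lengths and overlaps were taken from GENCODE mouse release 21. The members, lists and tests were chosen with earlier results of these data known. The values of 1 member are not reported here; it is included in the counts, medians and sums.

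From the deposited TPM, log2(TPM + 1) was computed for 11 libraries (siControl plus DTPA replicate 3 repeats siZIP10 replicate 1), and the 11379 genes whose mean reached 1 TPM were fitted with limma 3.58.1 (R 4.3.3, trend on mean expression, 4 group means, 7 residual and 3.21 prior degrees of freedom). The + 1 understates changes of low genes. Tests were two-sided, with Benjamini-Hochberg adjustment over all genes and a threshold of 0.05, in 6 comparisons. The p-values measure the spread between replicates that the labels call biological. The fit was also run on simulated data with independent normal noise and changes in few genes. In the real data many genes changed, so that run does not bear on the calls reported here. The promoter motifs were also chosen with results known, and the short NRF1 core replaced a longer form of the site after the counts of that form had been seen.

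Named by rule were the called members with the largest rise and fall per complex, the zinc-binding subunits and alternative isoforms. The rule also took complex II, the electron carriers, the 3 most negative called interactions and the 2 called above 0. Some of these members are given without every library or treatment. Multiplied by exon length, TPM values of up to 20 reads were whole within 0.1 read in 98.9 to 99.1% of cases, and voom was run on these recovered reads (11159 genes) as an alternative. The other alternatives were a pseudocount of 0.1, no filter or a mean of at least 5 TPM, 3 other scalings, no trend, only the groups compared, a replicate block, and leaving out each library. Tables and figures used Python 3.11.15, numpy 2.4.6, pandas 2.3.3, scipy 1.17.1 and matplotlib 3.10.9.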

Additional observations from a re-analysis of the deposited data

Results flagged for a closer look

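The interaction, the DTPA change in siZIP10 cells minus that in siControl cells, tests whether the DTPA effect differed between the backgrounds, and by limma it was above 0 for 2 of the 92 tested members and below 0 for 54. Over all tested genes it was called above 0 in 12% and below 0 in 20.4%. The members with a positive interaction were Cox7a1 (0.74) and Cox8a (0.25).

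In complex IV the named members with a negative interaction were Cox6a1 (-0.64), Cox7b (-0.64), Ndufa4 (-0.60), Cox5b (-0.52), Cox7a2 (-0.45), Cox6b2 (-0.35, but -0.25 and not called with quantile normalization), Cox6b1 (-0.31) and Cox4i1 (-0.13). The call of Cox4i1 was lost after rescaling without mitochondrial genome and ribosomal protein genes (-0.07), with no trend and without siControl plus DTPA replicate 1 (-0.13 each). In complex I they were Ndufb8 (-0.59), Ndufs6 (-0.52) and the assembly factor Ndufaf1 (-0.36). In complex III they were Uqcrc2 (-0.49), Uqcrb (-0.48) and Uqcrfs1 (-0.29), and in complex II Sdhd (-0.19, but -0.03 and not called with quantile normalization). In ATP synthase they were Atp5o (-0.59), Atp5g1 (-0.28) and Atp5g3 (-0.25). Each is a log2 difference called by limma over all tested genes.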

How the results depend on the processing

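Over 21 alternatives, the counts of members called lower stayed within 1.5 times the reported ones in all 6 comparisons. Small counts of members called higher moved. For the interaction it was 4 after median-of-ratios scaling, after rescaling without mitochondrial genome and ribosomal protein genes and with voom, and 1 without a filter and without a trend. For DTPA within the knockdown it was 5 after median-of-ratios scaling, after that rescaling and with voom, and 6 with quantile normalization. For siZIP10 alone it was 1 after median-of-ratios scaling and 2 with voom. Leaving out 1 library at a time gave, for higher and lower calls, 2 to 4 and 32 to 44 with DTPA, 0 to 1 and 42 to 56 with siZIP10, 2 to 3 and 78 to 80 with both, 3 to 4 and 71 to 76 for DTPA within the knockdown, 2 and 75 to 78 for the knockdown within DTPA, and 1 to 2 and 49 to 56 for the interaction. With quantile normalization 3 called changes turned sign: DTPA within the knockdown gave 0.03 for Sdha and 0.04 for Sdhb, and the knockdown within DTPA gave 0.00 for Sdhd. Of 152 called changes of the 33 named members, 125 never lost it in the alternatives run and 26 lost it in at least 1; the last is that of Sdhd, which turned sign as given above. The cause was not tested. Same-numbered libraries did not deviate together from their group means (r of -0.060 to 0.061 over 15 pairs). Deviations within groups of 2 or 3 libraries sum to 0, so these values cannot tell whether the numbers pair the cultures. The replicate block gave 3 higher and 40 lower with DTPA, 0 and 53 with siZIP10, 2 and 80 with both and 2 and 55 for the interaction. A leave-out of 1 DTPA library leaves 1, which is assumed to vary like the other groups. The interaction could not be run on only the groups compared, since it needs all 4. Depth limits members near 1 TPM, such as Ndufb2 and Ndufb4c.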
